A study of Homo sapiens with 14 samples.

Results

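Of the 59471 gene names in the count files, 9 were examined, namely the translesion DNA polymerase genes REV3L, REV1, MAD2L2, POLH, POLK, POLI and POLN, the end-joining polymerase gene POLQ, and RAD18. They were chosen by name, as the 9 rows whose gene identifier was one of these symbols, and all 9 had a count. RNA-seq of poly(A) RNA had been made from SCC23, an established line of head and neck squamous cell carcinoma, in KMT2D-WT cells and in the KMT2D-KO lines KO1 and KO2. KMT2D encodes a histone H3 lysine 4 methyltransferase that acts at enhancers. Cells were kept in high glucose (+Glc) or deprived of glucose for 6 h (-Glc), and each condition had 3 KMT2D-WT libraries and 4 KMT2D-KO libraries from 2 experiments. Both genotypes had received the same CRISPR/Cas9 plasmid, with an sgRNA to LacZ in KMT2D-WT cells and to KMT2D in KMT2D-KO cells. GFP-positive cells had been sorted, and the study describes no cloning of single cells. The labels do not say that replicate libraries came from separate cultures, so each p-value measures only the spread between these libraries.

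Translesion polymerases copy DNA past lesions that stop the replicative polymerases, at the price of lower accuracy. RAD18 is the ubiquitin ligase that marks PCNA at a stalled fork, Y-family polymerases (POLH, POLI, POLK and REV1) insert a base across from the lesion, and polymerase zeta, built around the catalytic subunit REV3L and the small subunit MAD2L2 (REV7), extends from it. MAD2L2 also belongs to shieldin, which limits the trimming of broken ends, while POLQ joins broken ends at short stretches of homology, and POLN is an A-family polymerase related to POLQ. These steps belong to the repair of DNA crosslinks together with the Fanconi anemia pathway, which the study followed in cells without glucose.

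Libraries held between 15669154 and 62968057 counts. KMT2D itself had 231 to 239 CPM, counts relative to the normalised library size, in the -Glc KMT2D-WT libraries and 19.9 to 190 CPM in the -Glc KMT2D-KO libraries. In +Glc it had 266 to 279 CPM in KMT2D-WT, 182 and 184 CPM in KO1, and 323 and 373 CPM in KO2. A small edit need not lower the mRNA, so the gene's count does not check the KO labels. The -Glc KO1 library of experiment 1 stood apart, with 19.9 CPM of KMT2D against 145 to 190 CPM in the other -Glc KMT2D-KO libraries. Over the 63 genes that separated the lines, KO2 and KO1 differed by a median of 2.66 to 2.73 on the log2 scale in 3 of the 4 pairs of libraries, but by 0.118 in -Glc experiment 2, where the libraries labelled KO1 and KO2 were alike. The chi-square per gene between the 2 libraries of a genotype in -Glc experiment 2 was 1.71 (KMT2D-WT) and 1.78 (KMT2D-KO), against 25.9 to 83.0 in the other pairs, and no pair was identical. These other pairs are not like ones. Only the +Glc KMT2D-WT pair of experiment 2 (28.65) was of the same cells, and it was counted by both mates, while the rest set KO1 against KO2. The squamous markers, such as KRT5 and TP63, summed to 2149 to 4601 CPM per library, and 9 of the 10 were above 1 CPM in every library. KRT6A was at 0 to 0.102 CPM with glucose and 0.0907 to 1.13 CPM without it. Leukocyte markers summed to at most 0.29 CPM, endothelial markers to at most 4.11 CPM, and fibroblast markers to 3.26 to 7.09 CPM in KMT2D-WT and 7.37 to 26.8 CPM in KMT2D-KO.

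Promoter stretches are shown for POLH and REV1, the tested members whose -Glc KMT2D-KO libraries all lay below the KMT2D-WT libraries. A stretch is also shown for POLK, the tested member with the largest fall after POLH without glucose. Each is the longest run of the 250 bases before the RefSeq start (GRCh38.p14) that lies in no annotated exon, 5′ to 3′ on the strand of the gene, at chr6:43576039-43576184 (plus strand), chr2:99490036-99490267 (minus strand) and chr5:75511641-75511758 (plus strand). Capitals mark matches to searched letters on either strand.
POLH: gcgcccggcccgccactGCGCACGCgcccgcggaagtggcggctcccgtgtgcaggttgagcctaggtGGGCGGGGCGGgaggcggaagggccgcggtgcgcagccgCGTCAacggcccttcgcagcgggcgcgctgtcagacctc
REV1: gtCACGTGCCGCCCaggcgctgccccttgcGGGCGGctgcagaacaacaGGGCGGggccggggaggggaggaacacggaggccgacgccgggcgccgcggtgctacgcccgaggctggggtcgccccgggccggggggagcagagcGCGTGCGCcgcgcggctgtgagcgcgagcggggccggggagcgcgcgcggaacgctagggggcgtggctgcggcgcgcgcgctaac
POLK: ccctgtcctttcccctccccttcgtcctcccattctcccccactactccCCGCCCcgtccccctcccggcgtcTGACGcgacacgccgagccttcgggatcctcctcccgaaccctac
The capitals are a GC box (GGGCGG), an NRF1-type motif (GCGCANGC), an E-box (CACGTG) and the core of a cAMP response element (TGACG), and neighbouring matches can overlap. All 9 members matched the RefSeq table, which held 11 windows of 300 bases for them, and 10 of these 11 windows held GGGCGG, as did 44.95% of the 35116 windows of all genes. REV3L and MAD2L2 had 2 windows each. Except for POLQ (50.3%) and RAD18 (57.7%), the windows were at 66.3% GC or more, where the median of all windows was 58.7%. The part of GC content in the counts of matches was not tested. GCGCANGC was in 5 of the 11 (REV1, RAD18, POLN, POLH and POLI; 11.98% of all), TGACG in 4 (24.55% of all), CACGTG in 2 (REV1 and POLI; 7.3% of all), TTTNNCGC in 2 (6.9% of all), and CCAAT in 1 of MAD2L2 (34.6% of all). TATAAA was in 1 (REV3L; 11.5% of all), and TGATGNAA (3.6% of all) and the full element TGACGTCA (1.85% of all) were in none. The RefSeq starts of RAD18 and POLQ lay 301 and 653 bases inside the ends of these genes in the count files. A match is a description of letters and not a site.

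**Figure D1:**
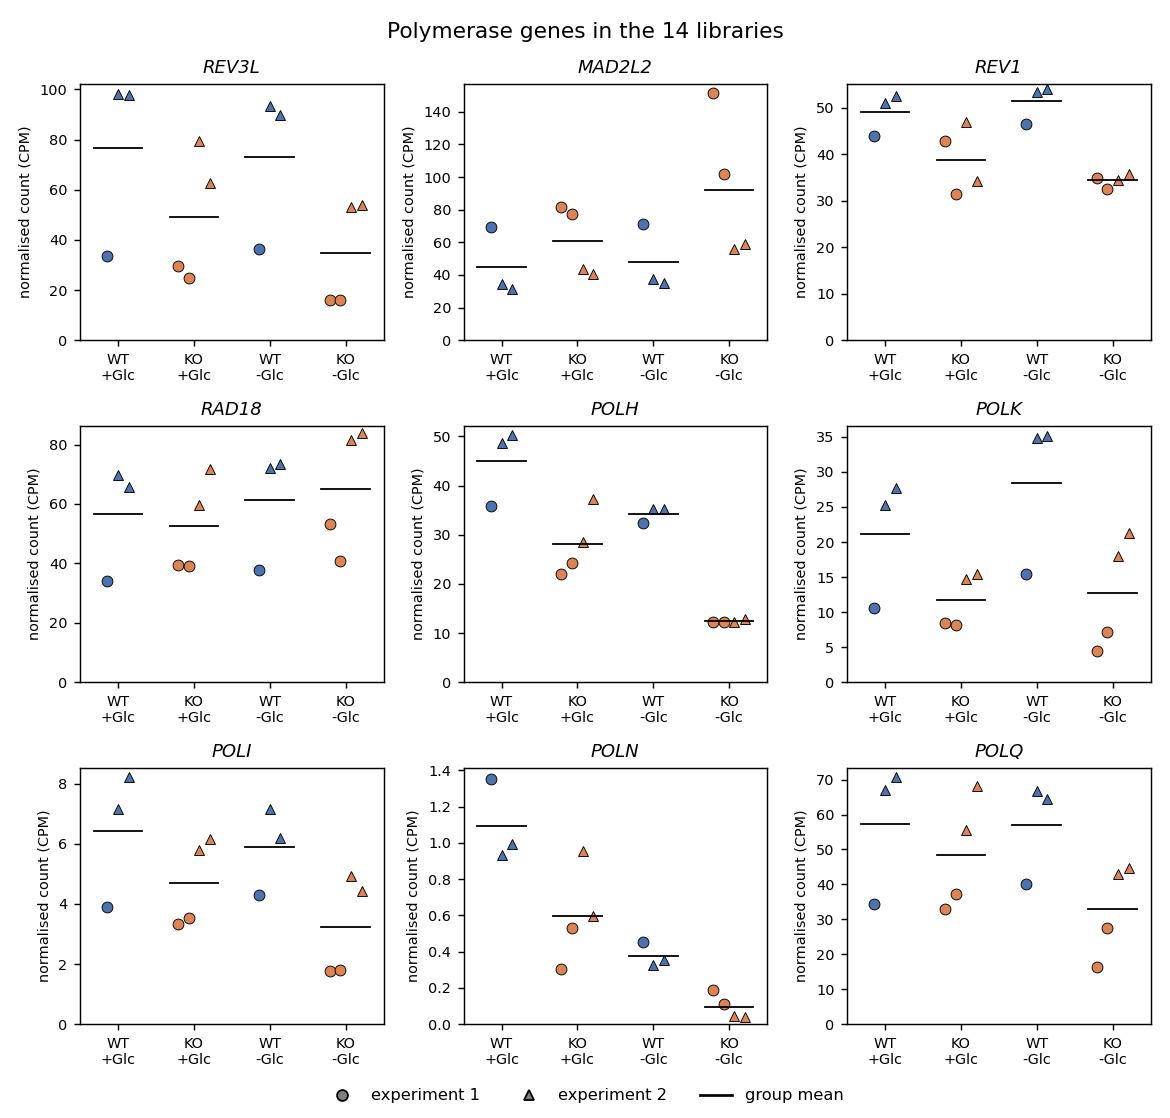
Normalised counts (CPM, vertical axes starting at 0) of the 9 genes in the 14 libraries, by genotype and glucose condition. Circles are libraries of experiment 1, triangles are libraries of experiment 2, and bars are group means; POLH lay at 12.2 to 12.9 CPM in all 4 KMT2D-KO libraries without glucose, and REV3L and MAD2L2 separated the experiments in opposite directions.

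Relative to exonic length, MAD2L2 had the highest mean level over the 14 libraries (19.1 CPM per kb), followed by RAD18 (8.41 CPM per kb), REV1 (5.47), POLQ (5.09), REV3L (4.51), POLH (3.41), POLK (1.94), POLI (0.518) and POLN (0.0665). MAD2L2 was above RAD18, POLK above POLI and POLI above POLN in all 14 libraries. RAD18 was above REV1 in 12 libraries, and POLH above POLK in 12. Neighbours among REV1, POLQ, REV3L and POLH were not separated beyond their spread, since each exceeded the next of them in 8 or 9 of 14 libraries. POLN had 1 to 63 counts per library, and 49.3% of its exonic bases were shared with AL136360.1 and HAUS3, so its values are uncertain. The shared part was 10.97% for REV1 (EIF5B), 10.8% for POLK (AC010245.1 and CERT1), 6.6% for POLI (AC093462.1), 5.6% for REV3L (AL080317.2 and TRAF3IP2-AS1), 3.1% for POLH (GTPBP2) and 0 for MAD2L2, POLQ and RAD18, and without strand the reads of such bases cannot be told apart.

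The experiments also differed in most of these genes. In KMT2D-WT cells with glucose, experiment 2 was above experiment 1 by 1.55 on the log2 scale for REV3L, by 1.32 for POLK and by 1.00 for POLQ and RAD18, and below it by 1.08 for MAD2L2. REV1 differed by 0.24 and POLH by 0.47. In the same libraries, genes with at least 8 kb of exons were set against genes of at most 2 kb. Relative to the mean of the 14 libraries, the log2 value was -0.33 in experiment 1 and 0.66 and 0.71 in experiment 2. The part of gene length in the experiment differences of the members was not tested. Across 14268 genes, which are not independent replicates, the experiment differences of KMT2D-WT and KMT2D-KO had a Pearson r of 0.95 in +Glc and 0.84 in -Glc. Genotypes were therefore compared with experiment as a covariate, with edgeR's quasi-likelihood test and Benjamini-Hochberg adjustment over all genes tested, and a gene is called where its adjusted p is under 0.05.

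The first comparison asked how the genes differed between KMT2D-KO and KMT2D-WT cells without glucose. In -Glc, 6 of the 9 members were lower in KMT2D-KO, MAD2L2 was higher, RAD18 was not called, and POLN was removed by the filter on low counts. Of the 16782 genes tested, 24.9% were called lower and 25.9% higher (4179 and 4342 genes, or 6295 and 2726 with scaling by library size alone, which moved the median of all genes to -0.25 and left the members at 6 lower and 1 higher). The median log2 fold change was -0.76 over the 8 members tested and 0.003 over all genes.

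All 4 Y-family genes were lower. POLH, the polymerase that copies past ultraviolet damage, had 32.3, 35.3 and 35.2 CPM with KMT2D intact, and 12.2, 12.3, 12.2 and 12.9 CPM in KMT2D-KO. Every KMT2D-KO library lay below every KMT2D-WT library, and POLH fell to 0.361 of its level (log2 fold change -1.47, SE 0.08, adjusted p = 5.31e-05 by edgeR). POLK, which copies past bulky adducts, had 15.4, 34.9 and 35.1 CPM in KMT2D-WT and 4.45, 7.18, 18.0 and 21.3 CPM in KMT2D-KO. The groups overlapped across experiments but not within one, and the log2 fold change was -1.07 (SE 0.17, adjusted p = 0.00203 by edgeR). CERT1, which shares exonic bases with POLK, had a log2 fold change of -0.995 (adjusted p = 0.00337). The genes that share exonic bases with POLH and REV1, GTPBP2 (0.04) and EIF5B (-0.38), were not called. POLI, an error-prone insertion polymerase, had 4.31, 7.14 and 6.20 CPM in KMT2D-WT and 1.76, 1.80, 4.94 and 4.44 CPM in KMT2D-KO. Its libraries also separated only within an experiment, and it fell with a log2 fold change of -0.81 (SE 0.18, adjusted p = 0.00924). REV1, the scaffold that recruits the other translesion polymerases, had 46.5, 53.5 and 54.1 CPM in KMT2D-WT and 34.9, 32.6, 34.5 and 35.7 CPM in KMT2D-KO. These groups did not overlap, and the log2 fold change was -0.57 (SE 0.09, adjusted p = 0.00177).

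The 2 subunits of polymerase zeta went in opposite directions. REV3L, the catalytic subunit, had 36.2, 93.5 and 89.7 CPM in KMT2D-WT and 16.2, 16.0, 53.0 and 54.0 CPM in KMT2D-KO. It was lower in KMT2D-KO within each experiment, with a log2 fold change of -1.17 in experiment 1 and -0.78 in experiment 2. MAD2L2 had 71.2, 37.6 and 35.3 CPM in KMT2D-WT and 151.2, 101.8, 56.1 and 59.0 CPM in KMT2D-KO. It was higher in KMT2D-KO within each experiment, and it rose 1.64-fold (log2 fold change 0.71, SE 0.16, adjusted p = 0.00990). RAD18 had 37.9, 72.3 and 73.5 CPM in KMT2D-WT and 53.4, 40.9, 81.5 and 83.9 CPM in KMT2D-KO. Its log2 fold change was 0.22 with a 95% interval of -0.07 to 0.51 (adjusted p = 0.181).

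POLQ had 40.1, 66.6 and 64.4 CPM in KMT2D-WT and 16.3, 27.5, 43.1 and 44.8 CPM in KMT2D-KO. The KO1 library of experiment 1 was the lowest of the 7, and within each experiment both KMT2D-KO libraries lay below KMT2D-WT, with log2 fold changes of -0.87 and -0.58. POLN had 0.453, 0.326 and 0.353 CPM in KMT2D-WT and 0.188, 0.112, 0.0475 and 0.0419 CPM in KMT2D-KO, too few counts for the main test, and without the filter on low counts its log2 fold change was -2.18 (SE 0.77, adjusted p = 0.0173 by edgeR). Over all 7 libraries REV1, POLH and the untested POLN lay wholly lower in KMT2D-KO, where 18.9% of genes tested lay wholly lower and 16.3% wholly higher. Within each experiment 6 of the 8 tested members lay wholly lower and 2, MAD2L2 and RAD18, wholly higher, against 32.3% and 31.6% of genes tested, and POLN lay wholly lower too.

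Libraries without glucose also differed in ways that moved with genotype. Genes with at least 8 kb of exons, set against genes of at most 2 kb, were at -0.77 and -0.46 (log2, relative to the mean of the 14 libraries) in the KMT2D-KO libraries of experiment 1 and at -0.37 in its KMT2D-WT library. In experiment 2 the values were -0.14 and -0.20 in KMT2D-KO and -0.07 and -0.10 in KMT2D-WT. MAD2L2, at 3.32 kb of exons, was the shortest member, and the others had 6.98 to 12.4 kb. With an offset for exonic length in each library the 7 calls held, with log2 fold changes of -1.32 for POLH, -0.91 for POLK, -0.74 for REV3L, -0.64 for POLI, -0.55 for POLQ, -0.44 for REV1 and 0.78 for MAD2L2. G2/M markers summed to 2289 to 3113 CPM in KMT2D-KO and 4096 to 5290 CPM in KMT2D-WT, with 8 of 14 called lower and 0 higher, or 8 and 1 at an unadjusted p under 0.05 (median log2 fold change -0.52), while of 16 S phase markers 4 were called lower and 4 higher. Of the 10 squamous markers 5 were called higher and 0 lower, or 6 and 0 at an unadjusted p under 0.05 (median log2 fold change 0.50), and KRT17 had a mean of 766 CPM in KMT2D-KO (SD 391, n = 4) and 163 CPM in KMT2D-WT (SD 44.5, n = 3). Of the 16782 genes tested, 4749 were lower and 4858 higher at an unadjusted p under 0.05. The 1 endothelial marker tested had a log2 fold change of 2.24, and the 1 fibroblast marker tested 1.33. The part of these markers in the members' values was not tested, and in bulk samples fewer cells of a type and less RNA per cell cannot be told apart.

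The 3 members POLH, POLK and REV3L kept their calls when the close pairs of experiment 2 were summed to 1 library each. REV1, POLQ, POLI and MAD2L2 lost theirs in that fit. Without the experiment term only POLH and REV1 were called, and the adjusted p of REV3L was 0.176, and without the KMT2D-WT library of experiment 1 MAD2L2, POLQ and POLI were not called, with adjusted p of 0.0804, 0.0678 and 0.0575 by edgeR. Without the KO1 library of experiment 1, RAD18 was called higher with a log2 fold change of 0.125 (adjusted p = 0.0119), and 6 members were lower and 2 higher. In that fit 6312 of 16739 genes tested were called lower and 6136 higher.

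**Figure D2:**
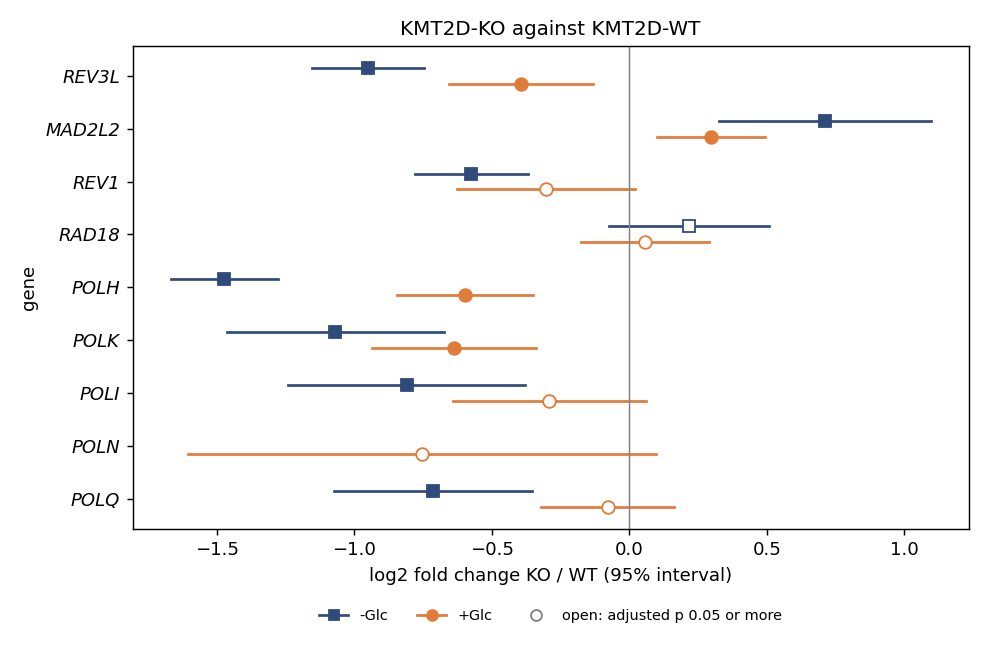
Log2 fold changes between KMT2D-KO and KMT2D-WT (horizontal axis) for each gene (vertical axis), with 95% intervals, in 3 KMT2D-WT and 4 KMT2D-KO libraries per glucose condition. Squares are -Glc, circles are +Glc, and open symbols did not pass an adjusted p of 0.05; POLH was at -1.47 in -Glc and -0.60 in +Glc, and MAD2L2 lay on the other side of 0 in both.

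The same comparison in cells kept in glucose gave fewer calls. In +Glc, 3 members were lower (POLK, POLH and REV3L) and 1 was higher (MAD2L2), of 9 tested, while 11.7% of the 20423 genes tested were called lower and 13% higher. At an unadjusted p under 0.05, 3533 of these genes were lower and 3900 higher. The median log2 fold change was -0.30 over the members and 0.02 over all genes. G2/M markers summed to 3544 to 4510 CPM in KMT2D-KO and 5124 to 6865 CPM in KMT2D-WT (5 lower and 0 higher of 14, or 7 and 0 at an unadjusted p under 0.05), and S phase markers to 2868 to 3230 CPM and 3507 to 3807 CPM (5 lower and 1 higher of 16). Squamous markers summed to 2149 to 2539 CPM in KMT2D-KO and 3106 to 3421 CPM in KMT2D-WT, with 3 lower and 0 higher of 9 tested (3 and 1 at an unadjusted p under 0.05). Fibroblast markers summed to 12.5 to 26.8 CPM and 5.76 to 7.09 CPM, and the 3 of 7 tested were all called higher (log2 fold changes of 1.26 to 5.24). Genes with at least 8 kb of exons, set against genes of at most 2 kb, also differed here. In experiment 1 they were at -0.37 and -0.47 (log2) in KMT2D-KO and -0.33 in KMT2D-WT. In experiment 2 they were at 0.57 and 0.51 in KMT2D-KO and 0.66 and 0.71 in KMT2D-WT. With an offset for exonic length 3 members were called lower and 1 higher. The part of these markers in the members' values was not tested.

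POLH had 35.8, 48.7 and 50.3 CPM in the +Glc KMT2D-WT libraries and 22.1, 24.4, 28.5 and 37.2 CPM in the KMT2D-KO libraries. The highest KMT2D-KO library, KO2 of experiment 2, lay above the KMT2D-WT library of experiment 1, and the log2 fold change was -0.60 (SE 0.11, adjusted p = 0.00441 by edgeR). POLK had 10.6, 25.2 and 27.7 CPM in KMT2D-WT and 8.48, 8.23, 14.8 and 15.5 CPM in KMT2D-KO. It was lower within each experiment, by 0.35 and 0.81 on the log2 scale, and the log2 fold change over both was -0.64 (SE 0.13, adjusted p = 0.00800). CERT1 was lower here as well (-0.68, adjusted p = 0.00487). REV3L had 33.5, 98.2 and 97.9 CPM in KMT2D-WT and 29.7, 24.9, 79.5 and 62.6 CPM in KMT2D-KO. Its fall was smaller than those of POLH and POLK (log2 fold change -0.39, SE 0.12, adjusted p = 0.0355).

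MAD2L2 had 69.4, 34.3 and 31.5 CPM in KMT2D-WT and 81.9, 77.5, 43.4 and 40.4 CPM in KMT2D-KO. Its KMT2D-KO libraries were above KMT2D-WT within each experiment, and the log2 fold change was 0.30 (SE 0.09, adjusted p = 0.0358). REV1, POLI, POLQ, RAD18 and POLN were not called, with log2 fold changes of -0.30, -0.29, -0.08, 0.06 and -0.75. REV1 was called lower under 2 other settings, with KO2 alone and with no filter on low counts. With 1 library left out, REV1 lay between -0.42 and -0.18 (the latter without KO2 of experiment 2), POLI between -0.37 and -0.21 and POLN between -1.09 and -0.32 (the latter without KMT2D-WT of experiment 1), while POLQ (-0.17 to 0.02) and RAD18 (-0.06 to 0.15) crossed 0. POLQ was above 0 without KO1 of experiment 2, and RAD18 below 0 without KMT2D-WT of experiment 1. POLQ ranged from 34.3 to 70.7 CPM in KMT2D-WT and from 32.9 to 68.1 CPM in KMT2D-KO, and the 95% interval of its log2 fold change was -0.32 to 0.16. None of the members separated over all 7 libraries, against 10.4% of genes wholly lower and 9.66% wholly higher. Within each experiment 5 members (REV3L, REV1, POLH, POLK and POLI) lay wholly lower and MAD2L2 wholly higher, against 21.3% and 21.7% of genes. The MAD2L2 call was lost with scaling by library size alone and without any 1 of the 7 libraries (adjusted p up to 0.124), the REV3L call without any of 5 (up to 0.124), and the POLH call without the KMT2D-WT library of experiment 1 (adjusted p = 0.0521 by edgeR). Without the experiment term no member was called by edgeR, 1 had an unadjusted p under 0.05, and DESeq2 called 1.

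Whether the KO effect itself differed between the glucose conditions was tested in 1 fit of the 14 libraries. POLH was more strongly lowered without glucose than with it, by -0.85 on the log2 scale (SE 0.14, 95% interval -1.15 to -0.55, adjusted p = 0.00373 by edgeR), and REV3L by -0.53 (SE 0.16, adjusted p = 0.0482). The POLH call held without any 1 library (adjusted p up to 0.0213), while the REV3L call was lost in 11 of 14 such fits (up to 0.217) and with 1 common experiment term. These were 2 of 9 members called lower and 0 called higher (3 and 1 at an unadjusted p under 0.05, 3 and 0 called by DESeq2), where 6.54% of the 18678 genes were called lower and 4.73% higher. At an unadjusted p under 0.05, 2676 of these genes were lower and 2421 higher, and DESeq2 called 1668 lower and 1805 higher. With scaling by library size alone, 2402 genes were lower and 264 higher in place of 1221 and 884 (median of all genes -0.23), and 3 members were lower. POLQ (-0.61, adjusted p = 0.0810), POLI (-0.49), POLK (-0.40), REV1 (-0.25) and MAD2L2 (0.44, adjusted p = 0.113) were not called, and the 95% interval for POLQ ran from -1.06 to -0.15 before adjustment. POLN, with few counts, had the largest estimate of the 9 (-1.40, SE 0.67, 95% interval -2.84 to 0.05) and was not called (adjusted p = 0.198 by edgeR), and with 1 library left out it lay between -2.06 and -1.05. POLQ was called lower under 5 other settings (DESeq2, scaling by library size, no filter on low counts, and without the -Glc KO1 or the -Glc KO2 library of experiment 1), and MAD2L2 higher under 3 (without either of these libraries, and with the length offset, adjusted p = 0.0433). With 1 library left out, POLI lay between -0.63 and -0.21, POLK between -0.53 and -0.18 and REV1 between -0.36 and -0.13. The values nearest 0 came without the -Glc KMT2D-WT library of experiment 1 for POLI and POLK, and without the +Glc KO1 library of experiment 2 for REV1. POLK was also nearer 0 without the +Glc KMT2D-WT or the -Glc KO1 library of experiment 1 (-0.23 and -0.25), and REV1 without the +Glc KO1 library of experiment 1 (-0.15). RAD18 was at 0.18, and lay between 0.09 (without the +Glc KO1 library of experiment 2) and 0.29 (without the +Glc KMT2D-WT library of experiment 1), with 0.12 without the -Glc KO1 library of experiment 1. G2/M markers were called lower for 2 of 14 and higher for 0 (4 and 0 at an unadjusted p under 0.05), S phase markers higher for 5 of 16 and lower for 0 (6 and 1 unadjusted) and squamous markers higher for 3 of 10 and lower for 0 (4 and 0 unadjusted), and their part in the members' values was not tested. For POLQ, a call in one glucose condition and none in the other was thus not shown to be a difference between them. With the close pairs summed, neither POLH (adjusted p = 0.0563) nor REV3L (adjusted p = 0.154) was called, and the offset for exonic length left POLH at -0.76 (adjusted p = 0.00719) and REV3L uncalled at -0.41.

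The response to 6 h without glucose was compared within each genotype, and these comparisons share libraries with those above. TXNIP, a gene induced by glucose, checked the deprivation and had a log2 fold change of -4.45 in KMT2D-WT and -3.44 in KMT2D-KO. In KMT2D-WT cells 3 of the 9 members were called, POLH and POLN lower and POLK higher. POLH was called lower (log2 fold change -0.37, SE 0.09, adjusted p = 0.0463 by edgeR) and POLK higher (0.45, SE 0.08, adjusted p = 0.027). POLH was at -0.15 in experiment 1 and -0.49 in experiment 2, whose glucose conditions differed in library layout. POLN was called lower too (-1.51, SE 0.25, adjusted p = 0.0271), from 1.35, 0.932 and 0.997 CPM to 0.453, 0.326 and 0.353 CPM. HAUS3, which shares exonic bases with POLN, was called higher (0.36, adjusted p = 0.0465 by edgeR). The other 6 members had log2 fold changes of -0.08 to 0.13. Of the 17227 genes tested, 7.58% were called lower and 7.15% higher. The calls were lost without the experiment term, with the close pair of -Glc KMT2D-WT libraries of experiment 2 summed, and without any 1 of the 4 KMT2D-WT libraries of experiment 2. In the fits with the pair summed or 1 of these libraries left out, no member and at most 1 gene was called by edgeR, while 3847 to 5064 genes and 3 or 4 members had an unadjusted p under 0.05.

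In KMT2D-KO cells, POLH, POLI, POLQ and REV3L were called lower and MAD2L2 higher of 8 members tested, against 16% and 14% of 16057 genes (2573 and 2240). With scaling by library size alone 3893 genes were lower and 1005 higher (median of all genes -0.20), the 4 members were called lower and MAD2L2 was not called. POLH had a log2 fold change of -1.18 (SE 0.14, adjusted p = 0.00218 by edgeR), from 22.1 to 37.2 CPM with glucose to 12.2 to 12.9 CPM without it. REV3L had a log2 fold change of -0.61 (SE 0.13), POLI -0.66 (SE 0.21), POLQ -0.61 (SE 0.17) and MAD2L2 0.54 (SE 0.13). POLK was at -0.52 in experiment 1 and 0.38 in experiment 2, and REV1 at -0.20 and RAD18 at 0.28 were not called. With the offset for exonic length REV3L, POLI and POLQ were not called, with adjusted p of 0.0532, 0.118 and 0.0537, POLH stayed at -1.01, and RAD18 was called higher at 0.43 (adjusted p = 0.0341). RAD18 was also called higher with DESeq2, with RLE scaling and without the -Glc KO2 library of experiment 1 (0.37, adjusted p = 0.0262 by edgeR). POLI lost its call without any 1 of the 8 libraries, POLQ and MAD2L2 without any 1 of 5 each, while POLH and REV3L kept theirs in all 8 cases. With the close pair summed POLI, POLQ and MAD2L2 were not called (adjusted p of 0.103, 0.0778 and 0.0601 by edgeR), and without the experiment term these 3 and REV3L were not. POLI also lost its call with RLE scaling and with no filter on low counts, and was at -0.95 in experiment 1 and -0.35 in experiment 2. In KMT2D-KO cells 5 of 14 G2/M markers were lower and 0 higher (8 and 0 at an unadjusted p under 0.05), 3 of 9 squamous markers higher and 0 lower (3 and 0 unadjusted), and 2 of 16 S phase markers lower and 3 higher, and their part in the members' values was not tested. Of the 16057 genes tested, 3635 were lower and 3483 higher at an unadjusted p under 0.05. In experiment 2 the libraries with glucose were counted by both mates and those without glucose were single-end, so library layout and glucose cannot be told apart there.

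**Figure D3:**
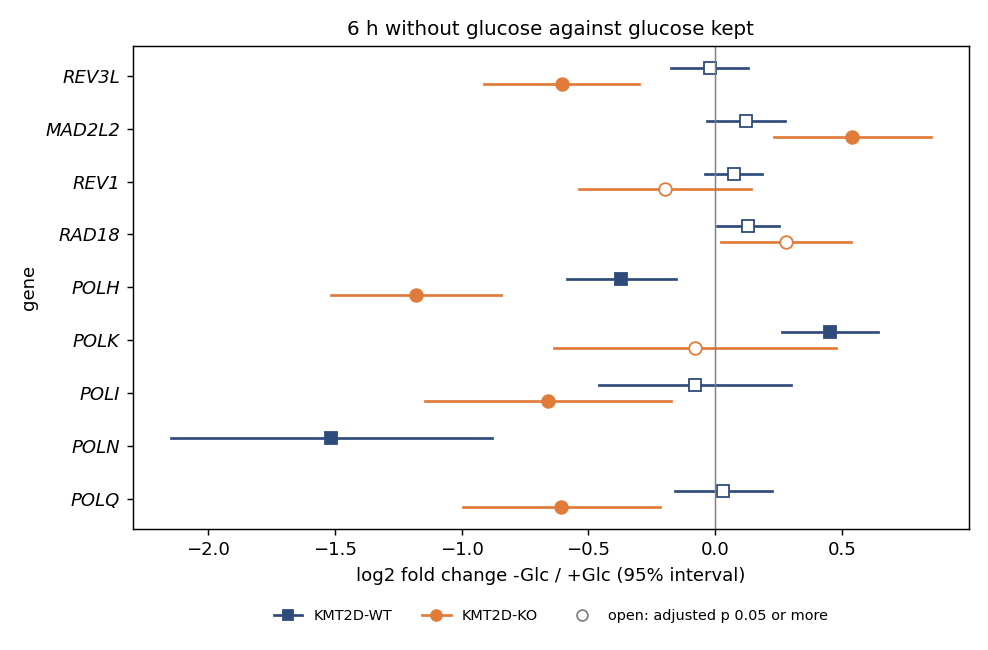
Log2 fold changes between 6 h without glucose and glucose kept (horizontal axis) for each gene (vertical axis), with 95% intervals. Squares are KMT2D-WT (3 against 3 libraries), circles are KMT2D-KO (4 against 4), and open symbols did not pass an adjusted p of 0.05; POLH was at -0.37 in KMT2D-WT and -1.18 in KMT2D-KO.

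The lines KO1 and KO2 were compared with glucose, where their labels were not in doubt. REV1 had 43.0 and 47.0 CPM in KO1 and 31.4 and 34.2 CPM in KO2, and was lower in KO2 (log2 fold change -0.45, SE 0.10, adjusted p = 0.00424 by edgeR). EIF5B, which shares exonic bases with REV1, had a log2 fold change of -0.60 between the lines. REV3L was lower in KO2 as well (29.7 and 79.5 CPM against 24.9 and 62.6 CPM, log2 fold change -0.31, adjusted p = 0.0446). These were 2 of 9 members lower and 0 higher (2 and 2 at an unadjusted p under 0.05, 2 and 1 called by DESeq2), where 7.89% of genes were called lower and 7.37% higher, and REV3L was not called with the length offset (adjusted p = 0.0733). Of the 20423 genes tested, 2649 were lower and 2740 higher at an unadjusted p under 0.05, and DESeq2 called 1594 lower and 1690 higher. Without the KO2 library of experiment 2 REV1 lost its call (adjusted p = 0.1402), and REV3L lost its call in 5 of 7 fits that left out 1 library (adjusted p up to 0.515).

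Partners of the polymerases were counted in lists chosen by function. Of 34 translesion partners, which modify or load PCNA or protect the fork, 7 were called lower and 9 higher without glucose (median log2 fold change -0.002), and 4 lower and 2 higher with glucose. Over all genes tested 24.9% were lower and 25.9% higher without glucose, and 11.7% and 13% with it, and the genotype counts of this list and of the next 3 are to be read against these shares. ATAD5, which unloads PCNA, was at -1.79 (SE 0.11, adjusted p = 6.54e-05 by edgeR) without glucose and -1.64 with it. PRIMPOL, which reprimes past lesions, was at -0.83, and SHPRH, a ligase that extends the ubiquitin chain on PCNA, at -0.73. RFC1, the large subunit of the PCNA loader, rose by 0.65, WDR48, a cofactor of the enzyme that removes ubiquitin from PCNA, by 0.50, and PCLAF, a PCNA-binding protein, by 0.48. With glucose, UFD1 (-1.23) and HLTF (-0.82) were lower and UBE2V2 (0.76) and RCHY1 (0.57) higher.

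Of 20 partners of theta-mediated end joining, 6 were lower and 2 higher without glucose (median -0.14), and 4 were lower and 2 higher with it (median -0.19). DNA2, a nuclease that trims ends, was at -0.96 without glucose and -0.67 with it. PARG, which removes poly(ADP-ribose), was at -0.61 and FEN1, the flap nuclease, at -0.54 without glucose, while NBN and RAD1, of the complexes that sense broken ends, were at 0.53 each. With glucose XRCC1 (-0.65) and RAD50 (-0.50) were lower, and RAD1 (0.64) and NBN (0.56) higher. Of 13 genes for shieldin and MAD2L2 partners, 5 were lower and 1 higher without glucose, and 3 lower and 2 higher with it. SHLD2, the shieldin subunit that binds single-stranded DNA, was lower in both (-0.73 and -0.47), and ASTE1, a nuclease of this pathway, was at -1.06 and CBX5 at -0.68 without glucose. SHLD1, another shieldin subunit, was higher with glucose (0.84, adjusted p = 0.0132 by edgeR), where CHAMP1 (-0.44) and POGZ (-0.26) were lower. TRIP13, which remodels MAD2L2, was higher in both (0.48 and 0.55). Of 17 replicative and other polymerase genes, 4 were lower and 2 higher without glucose (median -0.06), and 2 lower (POLM at -0.67 and POLE at -0.63) and 0 higher with it, or 6 and 2 at an unadjusted p under 0.05. At that limit 3533 of the 20423 genes tested with glucose were lower and 3900 higher. POLG2, the accessory subunit of the mitochondrial polymerase, was at -0.73, POLE2 at -0.57, POLM at -0.53, POLE4 at 0.66 and POLE3 at 0.36 without glucose.

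Between glucose conditions, 1 translesion partner was called lower and 5 higher in KMT2D-WT, where 7.58% of genes tested were lower and 7.15% higher, and 1 lower and 7 higher in KMT2D-KO, where 16% and 14% were. RFWD3, a ubiquitin ligase of the fork, was lower in KMT2D-WT (-0.47) and in KMT2D-KO (-0.79), and UBE2B, the partner enzyme of RAD18, was higher (0.47 and 0.57). RCHY1 (0.64) and RPA3 (0.49) were higher in KMT2D-WT, and UFD1 (0.67) and RFC5 (0.48) in KMT2D-KO. Of the theta partners, 2 were lower and 3 higher in KMT2D-WT and 3 lower and 2 higher in KMT2D-KO, with FEN1 at -0.27 and -0.60 and EXO1 at -0.35 and -0.50. NBN (0.34), HUS1 (0.32) and DNA2 (0.24) were higher in KMT2D-WT, and in KMT2D-KO XRCC1 (0.49) was higher and PARG (-0.63) lower. Of the shieldin and MAD2L2 partners, TRIP13 (0.24) was higher and 0 lower in KMT2D-WT (1 and 4 at an unadjusted p under 0.05), and CBX5 (-0.85) and ASTE1 (-0.81) were lower and 0 higher in KMT2D-KO (3 and 0 unadjusted). At that limit 3211 of 17227 genes were lower and 3765 higher in KMT2D-WT, and 3635 of 16057 lower and 3483 higher in KMT2D-KO. Of the other polymerases, POLG (-0.30) was lower and POLD2 (0.32) higher in KMT2D-WT, and POLG2 (-0.77) was lower and POLD2 (0.51) and POLE4 (0.40) higher in KMT2D-KO. In the test of the difference in KO effect, 6.54% of genes tested were called lower and 4.73% higher. At an unadjusted p under 0.05, 2676 of 18678 were lower and 2421 higher. Of the 13 shieldin and MAD2L2 partners, ASTE1 (-1.03) and CBX5 (-0.60) were called lower and 0 higher. Of the 17 other polymerases, POLG2 (-0.77) was called lower and 0 higher. Of the 34 translesion partners, UFD1 (0.55) and RFC1 (0.52) were called higher and 0 lower (5 and 1 at an unadjusted p under 0.05). Of the 20 theta partners 0 were called (1 lower and 1 higher unadjusted). Between the lines, where 7.89% of genes were lower in KO2 and 7.37% higher, 2 of 34 translesion partners were lower and 6 higher. SHPRH was at -0.68 and UBE2A, the other partner enzyme of RAD18, at -0.46, and PCLAF was at 0.63, PARPBP at 0.55 and RFC2 at 0.54. Of the 20 theta partners 2 were lower (HUS1 -0.73, RBBP8 -0.54) and 2 higher, with RHNO1 at 0.30. Of the 13 shieldin and MAD2L2 partners 1 was lower (CBX3 -0.32) and 2 higher (TRIP13 0.32, CBX5 0.29). Of the 17 polymerases POLE (0.43), PRIM1 (0.41) and POLE3 (0.28) were higher and 0 lower (5 and 2 at an unadjusted p under 0.05). At that limit 2740 of 20423 genes were higher in KO2 and 2649 lower.

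Levels of the members across the 14 libraries were described by Pearson's r of log2 CPM, over libraries that share experiments, lines and conditions. REV3L had an r of -0.97 with MAD2L2, 0.97 with POLI, 0.93 with POLK and POLQ, and 0.66 with POLH. Centred within experiment and glucose condition, REV3L and MAD2L2 had an r of -0.87 and REV3L and POLH 0.91. Of 14268 genes with a mean of at least 1 CPM, CCDC82, ZGRF1, TOP2B, SMCHD1 and CCDC14 were most like REV3L (r 0.99 each), TMEM170A, ATR, ZNF107, HOOK3 and AHCTF1P1 most like POLQ (r 0.98 to 0.99), and CDC34, NOP10, PSMD3, MRPL54 and RALY most like MAD2L2 (r 0.99 each). With the centred values the leading 5 genes were others, except HOOK3 for POLQ.

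**Figure D4:**
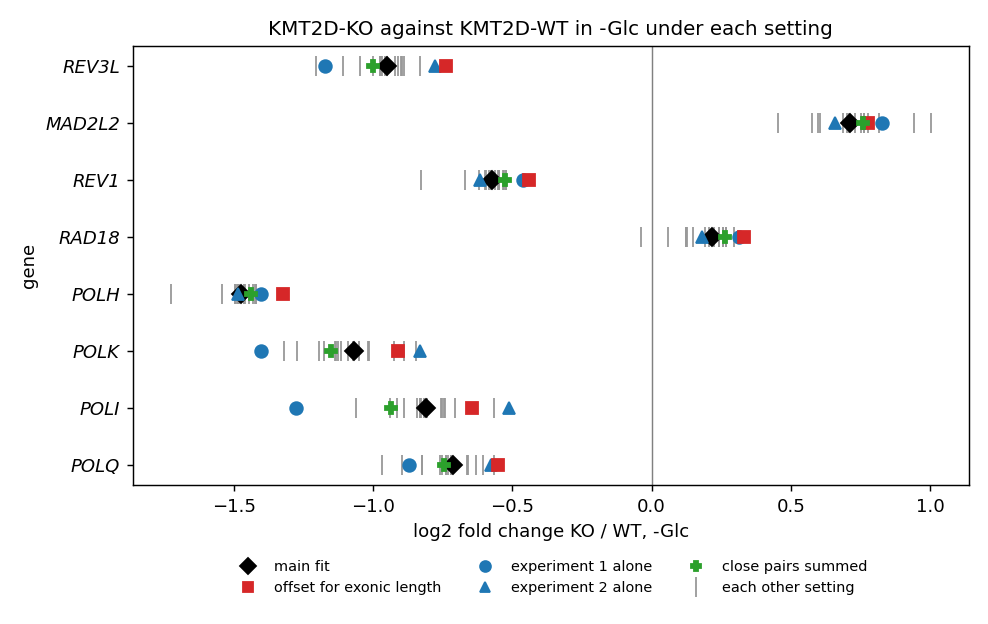
Log2 fold changes between KMT2D-KO and KMT2D-WT without glucose (horizontal axis) of the 8 genes tested (vertical axis) under the main fit and each other setting. Symbols mark the main fit, the length offset, each experiment alone and the close pairs summed, and bars mark the other settings; POLH stayed between -1.73 and -1.32, and RAD18 was the only gene with a value on both sides of 0.

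Under the 20 other settings of this comparison, POLH lay between -1.73 and -1.32 and was called in each. REV3L lay between -1.20 and -0.74, POLK between -1.40 and -0.83, REV1 between -0.83 and -0.44, POLQ between -0.97 and -0.55 and POLI between -1.28 and -0.51. MAD2L2 lay between 0.45 and 1.00. The signs of these 7 genes were the same under all 20, with the call lost under 2 settings for REV3L, POLK and REV1, 4 for MAD2L2, 5 for POLQ and 6 for POLI. RAD18 was called higher under 2 settings, without the KO1 library of experiment 1 and with KO2 alone. The settings KO1 alone and KO2 alone rest on line labels that were in doubt in -Glc experiment 2.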

How the data were processed

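RNA-seq counts of 14 libraries were analysed. The authors aligned reads to GRCh38 with HISAT2 and counted them on Ensembl 102 genes with featureCounts, without strand, and the deposited values are unnormalized counts per gene name. Per the file headers, both mates were counted in the 4 +Glc libraries of experiment 2. The members and lists were chosen with earlier results of these data known. Genes were filtered (filterByExpr, minimum count 10), scaled by TMM and tested with edgeR 4.0.16 in R 4.3.3 (quasi-likelihood, experiment as covariate, Benjamini-Hochberg, limit 0.05), each glucose condition alone for genotype. CPM values use TMM over 14 libraries, with a prior count of 2 on the log2 scale. Replicate numbers come from the labels, and experiment is the block they allow. Named genes were all members, KMT2D, TXNIP, for each partner list up to 3 genes per direction with the largest called changes of the same direction in both experiments, and for REV3L, POLQ and MAD2L2 the 5 genes of highest r. CERT1, EIF5B, GTPBP2, HAUS3, KRT17 and KRT6A fall outside this rule and were named after their values were seen. The values of 1 partner gene that the rule named are not reported here.

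The alternatives were DESeq2 1.42.0, RLE and library-size scaling, other filters, no experiment term, single lines or experiments, each library left out, a length offset, summed close pairs and halved paired counts. Tested on simulated data, the -Glc genotype fit found 95% of 100 genes changed 2-fold and 50% of 100 changed 1.5-fold, and 5.84% of its calls were false. The +Glc genotype fit found 85% and 36%, the glucose fits 73% and 45% (KMT2D-WT) and 56% and 8% (KMT2D-KO), the difference in KO effect 63% and 7%, and the line fit 94% and 71%. Only genes with a mean above 100 counts were changed, and far fewer genes were changed than were called in the data. Simulated libraries were drawn independently, unlike the close pairs of -Glc experiment 2. These rates therefore need not hold for the members, least of all POLN, or for the calls reported here. Whether the spread between replicates or counting error set the precision was not tested. The ChIP-seq data of the study were not analysed here.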

Additional observations from a re-analysis of the deposited data

Results flagged for a closer look

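In 1 of the 18 sets of 4 libraries examined (9 genes in both KMT2D-KO groups), 1 library lay apart from the rest: POLH in the -Glc library of experiment 2 labelled KO2 had 12.9 CPM against 12.2 to 12.3 CPM in the other -Glc KMT2D-KO libraries. A gap of this kind is seen in about 1 of 20 sets of 4 independent values with the same normal spread. These sets mix experiments and lines, so that rate need not hold for them. The difference is small against the distance to KMT2D-WT.

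The KO effect differed between glucose conditions for POLH (difference of log2 fold changes -0.85) and REV3L (-0.53), by the test of the difference itself. REV3L lost this call in 11 of 14 fits that left out 1 library, with the length offset and with 1 common experiment term, and both genes lost it with the close pairs summed and without the experiment term. The lines differed with glucose for REV1 (log2 fold change of KO2 against KO1 -0.45) and REV3L (-0.31). REV3L lost this call in 5 of 7 fits that left out 1 library and with the length offset, REV1 in 1 of 7, and both without the experiment term.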

How the results depend on the processing

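The genotype calls used experiment as a covariate. Without it (no replicate block), 3659 genes and 2 members were called between genotypes in -Glc, 971 genes and 0 members in +Glc, 2 genes and 0 members for glucose in KMT2D-WT, 1465 genes and 1 member for glucose in KMT2D-KO, 70 genes and 0 members for the difference in KO effect, and 10 genes and 0 members between the lines, where DESeq2 without the term called 4821 genes and 2 members in -Glc and 2572 genes and 1 member in +Glc. At an unadjusted p under 0.05, each fit with 0 members called had 1 member. The genes at that limit numbered 3871 in +Glc, 2440 for glucose in KMT2D-WT, 1877 for the difference and 1335 between the lines. The 1 common experiment term (replicate block) in the fit of 14 libraries called 1272 genes and 1 member. The -Glc libraries of each genotype in experiment 2 were nearly alike, and with them summed (added after seeing the data except for genotype in -Glc), 2785 genes and 3 members were called between genotypes in -Glc, 1 gene and 0 members for glucose in KMT2D-WT, 2282 genes and 2 members in KMT2D-KO, and 258 genes and 0 members for the difference, and 3 members of KMT2D-WT and 4 of the difference had an unadjusted p under 0.05. In these 2 fits 4196 and 3610 genes were at that limit.

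Within an experiment, contrasts took their spread from the fit of 14 libraries. Experiment 1 holds 1 KMT2D-WT library per glucose condition, assumed to vary like the other groups, so glucose in KMT2D-WT is 1 against 1 there. Experiment 1 alone called 4304 genes in -Glc, 1341 genes and 0 members in +Glc (2 members at an unadjusted p under 0.05), and 0 genes and 0 members for glucose in KMT2D-WT (977 genes and 1 member unadjusted). Experiment 2 alone called 2880 genes in +Glc, 3844 for glucose in KMT2D-WT and 8337 in KMT2D-KO. DESeq2 called 6213 genes for glucose in KMT2D-WT and 3473 for the difference, and no filter on low counts gave 5560 for glucose in KMT2D-WT. The length offset left 3 members called for glucose in KMT2D-KO and 1 between the lines (added after seeing the data). It called 5155 of 16057 genes for glucose in KMT2D-KO and 3171 of 20423 between the lines. With each library left out, the members called ranged from 4 to 8 in -Glc (6031 to 12448 genes) and from 1 to 3 in +Glc (2142 to 5048 genes). They ranged from 0 to 3 for glucose in KMT2D-WT (0 to 8747 genes) and from 2 to 6 in KMT2D-KO (1991 to 6553 genes). For the difference they ranged from 1 to 4 (788 to 4230 genes), and between the lines from 0 to 2 (905 to 3974 genes). In +Glc leaving out KMT2D-WT of experiment 1 gave the lowest counts, and between the lines leaving out KO2 of experiment 2. No called log2 fold change of a member changed sign under any setting. Where a setting changed a call, the cause was not tested. The depth of POLN (1 to 11 counts in the -Glc libraries) kept it out of the main -Glc test.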
